A study of Mus musculus with 8 samples.

Results

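Chemokines are small secreted proteins that steer the movement of leukocytes. Their genes are described here in the cells of B16F10 melanomas grown in mice with and without host *Atf4*. The members were all rows of the feature tables whose gene symbol begins with Ccl, Cxcl, Cx3cl or Xcl followed by a number and at most some lower-case letters. This rule found 44 of 31053 rows, namely 30 Ccl, 12 Cxcl, 1 Cx3cl and 1 Xcl row, which carry 39 symbols. All 44 rows matched the gene annotation of GRCm38, the build of the files, where 12 rows lie on chromosome 11 and 10 on chromosome 5.

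Single cells were sequenced from 8 large B16F10 tumours (300 mm3), with 1 library per tumour. B16F10 is a mouse melanoma cell line and was injected under the skin. Of the hosts, 4 were *Atf4* WT/WT (tumours WT1 to WT4, 2 male and 2 female) and 4 were *Atf4* Δ/Δ (tumours KO1 to KO4, 3 male and 1 female), and the labels give 12 weeks of age for all. Hosts of both genotypes carried the tamoxifen-inducible Rosa26::CreERT2 and received tamoxifen by gavage. The Rosa26 locus is active in most tissues, so excision of the floxed *Atf4* exons in *Atf4* Δ/Δ hosts was not limited to one host cell type, whereas the injected B16F10 cells kept their own gene.

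Each chemokine binds one or several G-protein-coupled receptors on its target cells. Some, such as Cxcl12, are made constantly by stroma and hold cells in place. Others, such as Ccl2, Cxcl1 and Cxcl10, are induced by inflammatory or interferon signals and draw monocytes, neutrophils or T cells into a tissue. In tumours, cancer-associated fibroblasts (CAFs), tumour-associated macrophages (TAMs) and the malignant cells themselves are known sources.

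A count in these files is a number of unique molecular identifiers (UMIs), and levels are given in CPM, the UMIs of a gene per 1000000 UMIs of a cell class in a tumour. After filtering, 28169 cells were kept (2706 to 5573 per tumour), and libraries held 37283598 to 74942137 UMIs. Of all barcodes, 199 occurred in more than 1 library, 96 of them among kept cells. The kept cells formed 23729 melanoma-like, 650 CAF-like, 36 endothelial-like and 822 immune cells, and 2776 cells with low RNA stayed unnamed. Another 81 cells of the CAF cluster and 75 of the immune clusters also carried melanoma markers and were set aside. The immune cells comprised 358 TAM-like, 293 monocyte-like and 85 T/NK-like cells and 2 small dendritic-like groups led by *Flt3* (47 cells) and *Fscn1* (39 cells). The deposited tables hold no cell names, so these classes were rebuilt, with the chemokine genes and their receptors left out of the clustering. KO3 contributed 10 CAF-like cells and WT2 contributed 12 TAM-like cells, and their values in these classes rest on the fewest cells. *Atf4* itself stood at 298, 268, 283 and 247 CPM in CAF-like cells of WT1 to WT4 and at 93.4, 71.4, 171 and 47.7 CPM in those of KO1 to KO4, with a log2 fold change of -1.86 ± 0.26 (SE, n = 4 and 4). Its adjusted p was 0.0233 by the quasi-likelihood test of edgeR with Benjamini-Hochberg adjustment, the test used throughout, and no other gene passed in these cells.

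Promoters of 4 ligands are shown because their letters differ in the motifs that interferon-activated and NF-κB factors are known to bind, while the genes differ in the cells that hold their transcripts. Each window runs from 250 bases before to 50 bases after the annotated start of the gene (RefSeq, GRCm38.p6), written 5′ to 3′ on the strand of the gene. Capitals mark matches, on either strand, to GAAA, any 2 bases and GAAA (interferon-stimulated response element-like) or to GGGA, any 2 bases and TTCC (kappaB-like). *Cxcl10* lies at chr5:92348840-92349139 on the minus strand, *Cxcl1* at chr5:90890995-90891294 and *Cxcl2* at chr5:90903649-90903948 on the plus strand, and *Cxcl12* at chr6:117168285-117168584 on the plus strand.
Cxcl10: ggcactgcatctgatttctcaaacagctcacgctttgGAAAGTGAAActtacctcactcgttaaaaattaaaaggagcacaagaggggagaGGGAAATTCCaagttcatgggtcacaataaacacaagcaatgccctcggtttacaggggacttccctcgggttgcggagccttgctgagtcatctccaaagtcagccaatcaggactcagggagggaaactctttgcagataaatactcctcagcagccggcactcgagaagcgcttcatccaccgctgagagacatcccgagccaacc
Cxcl1: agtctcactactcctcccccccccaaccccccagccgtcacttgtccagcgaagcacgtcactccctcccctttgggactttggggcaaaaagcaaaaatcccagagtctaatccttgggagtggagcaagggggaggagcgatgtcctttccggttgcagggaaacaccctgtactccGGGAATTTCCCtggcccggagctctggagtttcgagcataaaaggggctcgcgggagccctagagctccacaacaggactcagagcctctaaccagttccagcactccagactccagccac
Cxcl2: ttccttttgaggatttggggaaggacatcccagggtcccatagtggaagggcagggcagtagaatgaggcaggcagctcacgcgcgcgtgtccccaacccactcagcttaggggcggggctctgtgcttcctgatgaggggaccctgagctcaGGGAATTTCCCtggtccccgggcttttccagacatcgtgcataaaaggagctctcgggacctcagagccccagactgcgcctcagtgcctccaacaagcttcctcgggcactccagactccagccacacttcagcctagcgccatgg
Cxcl12: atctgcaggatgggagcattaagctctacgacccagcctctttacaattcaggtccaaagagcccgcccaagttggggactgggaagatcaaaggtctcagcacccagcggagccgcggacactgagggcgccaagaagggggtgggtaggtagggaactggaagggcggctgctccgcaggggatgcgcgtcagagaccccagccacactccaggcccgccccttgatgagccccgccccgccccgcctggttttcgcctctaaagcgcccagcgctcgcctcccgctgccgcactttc
The *Cxcl10* window holds 1 match of each kind, starting 213 and 159 bases before the start. In *Cxcl1* and *Cxcl2* the kappaB-like letters match on both strands with overlap, 71 and 97 bases before the start. The *Cxcl12* window holds neither. Of the 39 member symbols, 27 had a window, and some had more than 1. The kappaB-like letters occurred in 5 of 33 member windows (*Cxcl10*, *Cxcl1*, *Cxcl2*, *Cxcl3* and *Ccl1*) and in 1.47% of all 32851 windows. The interferon-type letters occurred in 3 of 33 (*Cxcl10*, *Ccl19* and *Cxcl14*) and in 3.44% of all windows. A match describes the letters and is not a measured binding site.

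Not every ligand was found. Of the 44 rows, 11 had 0 UMIs in kept cells (the rows of *Ccl21a*, *Ccl21b*, *Ccl21c*, *Ccl27* and *Ccl27b*, *Ccl26* and 1 of 2 rows of *Ccl19*). Most of these are near-identical copies on unplaced scaffolds or chromosome 4, so that reads shared among copies may have been lost in counting and their 0 is uncertain. Another 5 had 1 to 19 UMIs, namely *Ccl1* with 5, *Ccl20* with 2 and *Ccl19*, *Cxcl15* and *Cxcl17* with 1 each. The remaining 28 rows had at least 20 UMIs.

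The level of ligand transcripts differed widely between classes. Summed over all members, ligand transcripts made up 12522 ± 3378 CPM in TAM-like cells, 4880 ± 1544 CPM in CAF-like cells and 155 ± 84.7 CPM in melanoma-like cells (SD, n = 8 tumours each). Melanoma-like cells were by far the most numerous and contributed 51.0% of all ligand UMIs, against 22.8% from CAF-like cells and 19.6% from all immune cells. Among the 28 ligands with at least 20 UMIs, the highest pooled level was in CAF-like cells for 6, in the C1q-led TAM-like subcluster for 4, in the Mmp12-led TAM-like subcluster for 5, in monocyte-like cells for 4, in Fscn1-led dendritic-like cells for 5, and in T/NK-like and Flt3-led dendritic-like cells for 1 each. For 2 ligands, *Ccl27a* and *Ccl28* (37 UMIs, 0.144 CPM), it was in melanoma-like cells. Of these first places, that of *Ccl25* in *Flt3*-led cells and that of *Cx3cl1* in *Fscn1*-led cells rested on 2 UMIs each, and *Ccl25* had 5012 UMIs in melanoma-like cells. *Cx3cl1*, the ligand of CX3CR1, had 18 UMIs in CAF-like cells (6.08 CPM pooled) and 34 in melanoma-like cells (0.132 CPM). In TAM-like cells *Ccl3* was at 298 CPM pooled and *Ccl24*, a ligand of CCR3, at 24.4 CPM.

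**Figure D1:**
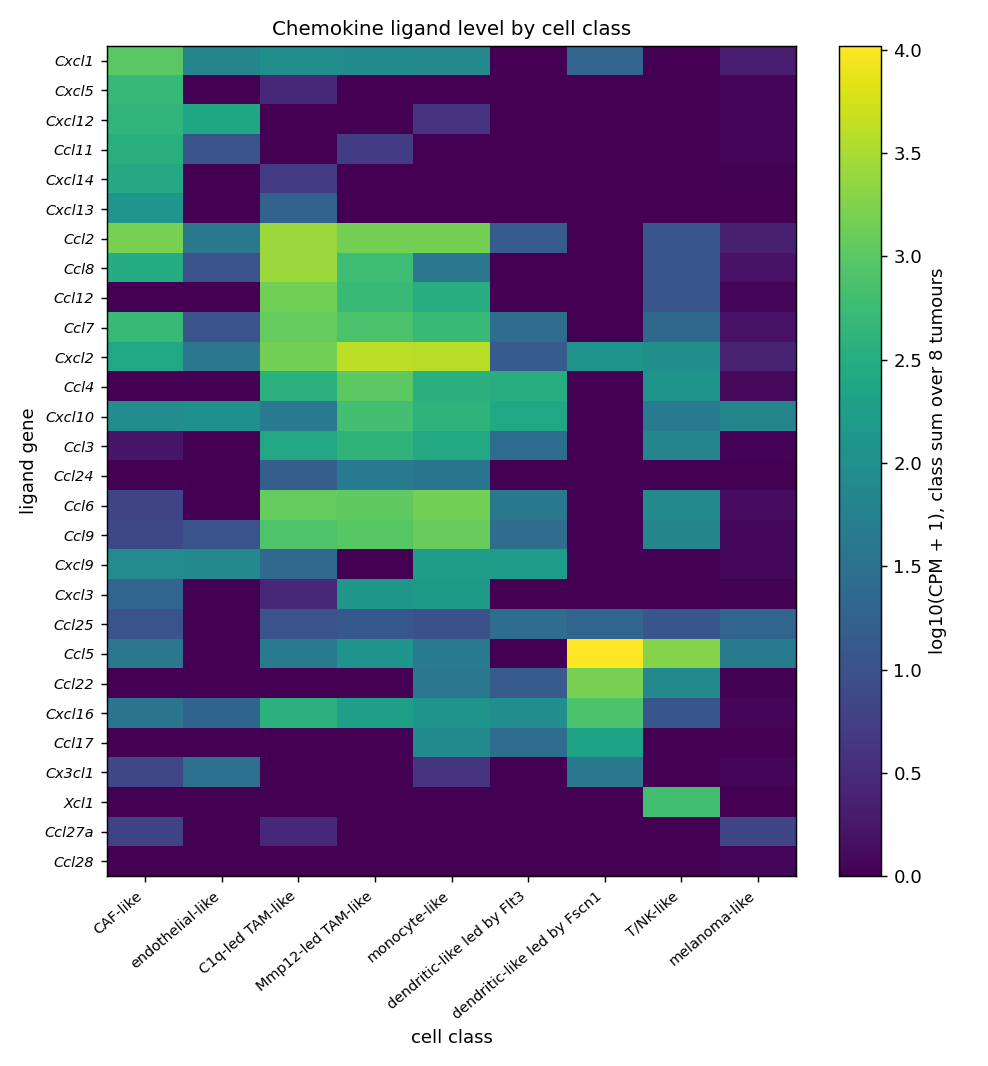
Pooled level of the 28 ligands with at least 20 UMIs (rows) in 9 cell classes (columns), as log10(CPM + 1) of all cells of a class over the 8 tumours. CAF-like cells and myeloid classes lead for different ligands and T/NK-like cells for *Xcl1*, with *Ccl2* and *Ccl7* high in both CAF-like and myeloid cells. The highest ligands of melanoma-like cells, *Cxcl10* (65.3 CPM) and *Ccl5* (46.4 CPM), are higher in Mmp12-led TAM-like (647 CPM) and Fscn1-led dendritic-like cells (10422 CPM), respectively.

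CAF-like cells were first compared with melanoma-like cells of the same tumours, to ask which ligands belong to the stroma. Of 20 members tested, 18 passed the threshold of 0.05, while 60.9% of all genes tested passed, and 17 were higher in CAF-like cells, against 26.6% of all genes. The median log2 difference of the members was 8.19, against -0.21 over all genes tested. These counts and the median depend on the expression filter, which works on CPM. CAF-like sums held 40826 to 1174352 UMIs per tumour and melanoma-like sums 24166027 to 49023968, so fewer UMIs reach the limit in CAF-like sums. *Ccl4*, *Ccl12* and *Ccl28*, with 71, 44 and 37 UMIs in melanoma-like and 0 in CAF-like cells, were not tested. Among those 17 were *Cxcl12* (11.23 ± 0.23, SE), the CXCR4 ligand that holds haematopoietic and immune cells near stroma, and *Ccl11* (11.08 ± 0.24), an eosinophil attractant acting through CCR3. The ligands of CXCR2 on neutrophils, *Cxcl5* (11.03 ± 0.23), *Cxcl1* (9.70 ± 0.21), *Cxcl3* and *Cxcl2* (6.96 ± 0.25), were among them too. So were the monocyte attractants *Ccl2* (9.97 ± 0.19) and *Ccl7* (9.49 ± 0.19), as well as *Ccl8* (8.55 ± 0.29), *Cxcl14*, the B cell attractant *Cxcl13* and the interferon-inducible *Cxcl9*. *Ccl25* was lower in CAF-like cells, at 9.80 against 19.5 CPM pooled (adjusted p = 0.0027 by edgeR), and *Ccl5* and *Ccl27a* did not pass. In CAF-like cells 101 of the 115 UMIs of *Ccl5* came from KO1, and without KO1 *Ccl5* was lower in CAF-like cells by a log2 difference of -2.96 and passed, as it did by DESeq2 (-2.89). *Cxcl10* passed with a difference of 0.60 ± 0.24 (adjusted p = 0.031 by edgeR), which fell to 0.38 without KO1 (adjusted p = 0.16), 0.43 without KO4 (0.086) and 0.55 without WT1 (0.063). Nor did it pass by DESeq2 (0.56, adjusted p = 0.36) or with the mitochondrial limit at 5% (0.26, adjusted p = 0.45 by edgeR). In all, *Cxcl10* passed in 9 of 16 alternative fits.

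TAM-like cells were compared with melanoma-like cells in the same way. Of 19 members tested, 16 passed, all of them higher in TAM-like cells, against 46.1% of all genes tested that passed and 16.9% that were higher. TAM-like sums held 20077 to 282442 UMIs per tumour, so these counts depend on the filter in the same way. *Cxcl12*, with 43 UMIs in melanoma-like and 0 in TAM-like cells, was not tested. The largest fitted log2 differences were those of the CCR2 ligand *Ccl12* (12.51 ± 0.23), of *Ccl9* (11.81 ± 0.23) and *Ccl6* (11.45 ± 0.22), both ligands of CCR1, and of *Ccl3* (11.32 ± 0.30). *Ccl2* (10.78 ± 0.17) and *Cxcl2* (10.75 ± 0.17) were close behind. The errors given with these differences were derived from the test statistic and do not measure the spread between tumours. *Cxcl10* was higher by 1.65 ± 0.21, but in the C1q-led subcluster alone it was lower than in melanoma-like cells, at -0.89 (adjusted p = 0.034 by edgeR). *Ccl5*, *Ccl25* and *Ccl27a* did not pass, although *Ccl5* did so (0.80) against melanoma-like cells without a cluster led by interferon-inducible genes.

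Set directly against each other, CAF-like and TAM-like cells held different ligands. Of 20 members tested, 19 passed, against 57.1% of all genes, and 7 of them were higher in CAF-like cells, against 32.6% of all genes. These 7 were *Cxcl12*, *Ccl11*, *Cxcl5*, *Cxcl14*, *Cxcl1*, *Cxcl13* and *Cxcl9*. Here too the counts depend on the expression filter, with 40826 to 1174352 UMIs per tumour in CAF-like and 20077 to 282442 in TAM-like sums. *Cxcl12*, *Ccl12* and *Ccl4*, with 0 UMIs in 1 class, reached the filter through the other class alone. *Cxcl12* had 1324 UMIs in CAF-like and 0 in TAM-like cells, which makes it at least 116-fold higher in CAF-like cells against the floor of 3 counts over the class. The 12 higher in TAM-like cells were *Ccl3*, *Ccl4*, *Ccl6*, *Ccl9*, *Ccl12*, *Cxcl2*, *Cxcl3*, *Cxcl10*, *Cxcl16*, *Ccl8*, *Ccl7* and *Ccl2*. *Ccl12*, with 886 UMIs, and *Ccl4*, with 446, had 0 UMIs in CAF-like cells, which makes them at least 1124-fold and 566-fold lower there. The CXCR2 ligands parted: *Cxcl1* was higher in CAF-like cells by 3.45 ± 0.20 and *Cxcl2* lower by a log2 difference of -3.65 ± 0.26. *Ccl2* and *Ccl7*, neighbours on chromosome 11, were high in both classes and differed by -0.76 ± 0.19 and -1.10 ± 0.18. *Ccl5* did not pass (-1.08 ± 0.52, adjusted p = 0.076 by edgeR).

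Shares of cells with a ligand were read beside the share in cells of another class. At least 1 UMI of *Cxcl12* was found in 48.3% of CAF-like cells (median 4332.5 UMIs per cell) and in 0.181% of melanoma-like cells, which were deeper (median 10302 UMIs) and stand for the background. At a common depth of 1000 UMIs the shares were 25.2% and 0.018%, over the 635 CAF-like and 23725 melanoma-like cells that reached it. *Ccl2* was found in 60.5% of CAF-like and 66.5% of TAM-like cells against 1.37% of melanoma-like cells, and at the common depth in 44.3%, 61.2% and 0.133%. *Ccl11* was found in 42.9% of CAF-like cells, in 0.279% of TAM-like and in 0.143% of melanoma-like cells. Intervals and floors given here cover counting error only.

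In CAF-like cells the 6 ligands with the highest pooled levels were *Ccl2*, *Cxcl1*, *Ccl7*, *Cxcl5*, *Cxcl12* and *Ccl11*. Pooling gave KO4 the most weight, with 1174352 of the 2959547 UMIs of these cells. With equal weight per tumour, *Cxcl14* would come next after *Ccl2* and *Cxcl1*, at 541 ± 984 CPM (SD, n = 8), with a median of 199.9 CPM and its highest value in KO3. *Ccl2* stood at 1125, 274, 1336 and 1003 CPM in WT1 to WT4 and at 1651, 1579, 931 and 2028 CPM in KO1 to KO4. WT2 was the lowest and KO3 lay within the *Atf4* WT/WT values, so that the genotypes overlapped. Its neighbour *Ccl7* stood at 449, 145, 523 and 463 CPM in WT1 to WT4 and at 503, 374, 318 and 622 CPM in KO1 to KO4, again lowest in WT2. In WT2, 17 of 45 CAF-like cells belonged to the *Rgs5*-led perivascular subcluster described below, against 3 of 61, 1 of 62 and 11 of 62 in WT1, WT3 and WT4. In KO1 to KO4 they were 2 of 108, 0 of 87, 2 of 10 and 19 of 215. Subcluster share and level per cell cannot be told apart in CAF-like sums, here and in the genotype tests.

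Levels of the neutrophil attractants were uneven. *Cxcl1* stood at 1405, 296, 599 and 1080 CPM in WT1 to WT4 and at 954, 919, 24.5 and 1120 CPM in KO1 to KO4. *Cxcl5* stood at 169, 168, 359 and 441 CPM in WT1 to WT4 and at 696, 334, 0 and 599 CPM in KO1 to KO4. KO3, with 10 cells, was the lowest tumour for both genes, and the rest of the *Atf4* Δ/Δ values lay among or above those of *Atf4* WT/WT tumours.

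*Cxcl12* stood at 640, 235, 345 and 405 CPM in WT1 to WT4 and at 439, 434, 343 and 486 CPM in KO1 to KO4, with the *Atf4* Δ/Δ values inside the *Atf4* WT/WT range. *Ccl11* stood at 249, 229, 185 and 193 CPM in WT1 to WT4 and at 337, 500, 367 and 428 CPM in KO1 to KO4. Every *Atf4* Δ/Δ tumour was above every *Atf4* WT/WT tumour for *Ccl11*, and in 3.95% of all genes tested the genotypes did not overlap in one or the other direction.

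**Figure D2:**
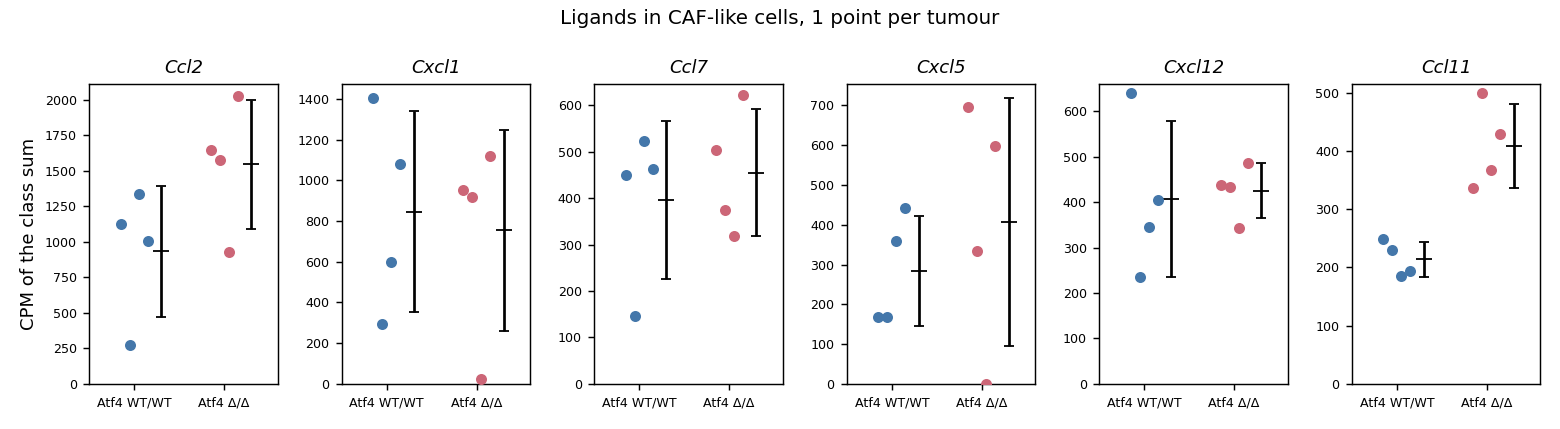
Level (CPM) of ligands in CAF-like cells of each tumour (points), *Atf4* WT/WT and *Atf4* Δ/Δ, with the mean ± SD of each genotype in black (n = 4 tumours). The genotypes overlap for *Ccl2*, *Cxcl1*, *Ccl7*, *Cxcl5* and *Cxcl12* and do not for *Ccl11*, which lies between 185 and 249 CPM in *Atf4* WT/WT and between 337 and 500 CPM in *Atf4* Δ/Δ tumours.

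Whether loss of host *Atf4* changed ligand transcripts in CAF-like cells was tested over 3720 genes, 12 of them members. No member passed, where 0.0269% of all genes did (*Atf4* alone), and DESeq2 called 0 members as well. At an unadjusted p under 0.05 there were 5 members, all higher in *Atf4* Δ/Δ hosts, against 7.93% of all genes in either direction and 4.46% in that direction. Of the 12 members, 11 had a positive log2 fold change, against 48.7% of all genes tested, and their median was 0.77 against -0.01. *Ccl11* had a log2 fold change of 0.98 ± 0.18 (SE) and an adjusted p of 0.091 by edgeR. Across the alternatives its log2 fold change stayed between 0.86 and 1.10, and its adjusted p between 0.0045 and 0.51. It passed without the expression filter (0.0045), where 114 genes passed, and without the perivascular subcluster of 53 cells (0.048). *Ccl2* reached 0.79 ± 0.36 (adjusted p = 0.62), with 0.48 without WT2, and passed without the expression filter (0.047). *Ccl7* was at 0.29 ± 0.31, with 0.03 without WT2, 0.10 without KO4 and 0.45 without WT3. *Cxcl12* (0.14 ± 0.25, adjusted p = 0.95) and *Cxcl1* (0.00 ± 0.51) had estimates smaller than their errors. The adjusted p-values are from edgeR.

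The other 3 with an unadjusted p under 0.05 are named after their values were seen. *Ccl8*, a ligand of mouse CCR8, stood at 173, 72.6, 163 and 180 CPM in WT1 to WT4 and at 282, 234, 73.5 and 479 CPM in KO1 to KO4 (1.08 ± 0.34, adjusted p = 0.43 by edgeR). *Cxcl2* stood at 156, 33.5, 90.8 and 171 CPM in WT1 to WT4 and at 416, 143, 0 and 321 CPM in KO1 to KO4 (1.27 ± 0.49). *Cxcl14* stood at 209, 168, 10.9 and 148 CPM in WT1 to WT4 and at 191, 348, 2964 and 291 CPM in KO1 to KO4 (2.42 ± 0.84). The value of KO3 came from 121 UMIs in 10 cells, and leaving out 1 tumour at a time gave log2 fold changes of *Cxcl14* from 1.13 (without KO3) to 2.90. Without the expression filter *Ccl8* (adjusted p = 0.0011 by edgeR), *Cxcl2* (4.7e-05) and *Cxcl14* (3.1e-16) passed. Without KO4, *Ccl8* was at 0.68. All 5 fibroblast matrix genes of a fixed list (*Col1a1*, *Col1a2*, *Col3a1*, *Dcn* and *Lum*) also had positive log2 fold changes in these cells, with a median of 0.36 and 2 of 5 at an unadjusted p under 0.05, and their part in the ligand values was not tested.

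**Figure D3:**
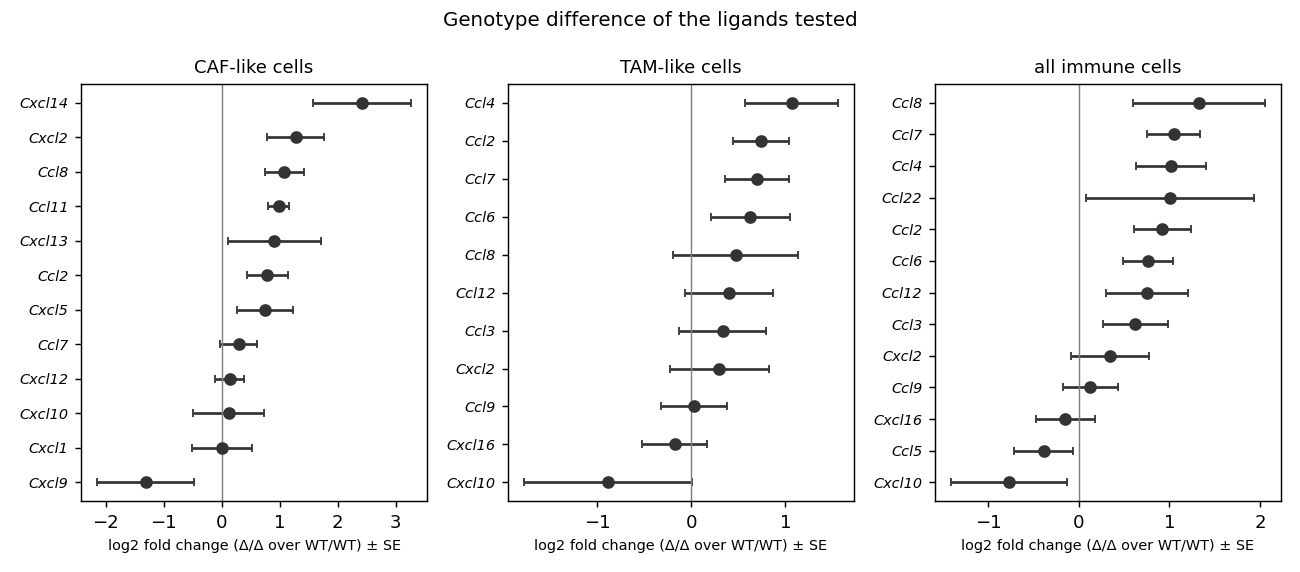
Log2 fold change of each tested ligand between *Atf4* Δ/Δ and *Atf4* WT/WT hosts (positive is higher in *Atf4* Δ/Δ) in CAF-like, TAM-like and all immune cells, with bars of ± SE derived from the edgeR test statistic (n = 4 and 4 tumours). Most points lie to the positive side, and none passed an adjusted p of 0.05.

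Within the CAF-like cells, ligands were spread unevenly over subclusters, which were defined in the same cells and are described without a test. *Cxcl12* was highest in a subcluster of 84 cells led by *Pi16*, *Lcn2*, *Saa3* and *Ptx3*, at 1750 CPM pooled (95% exact Poisson interval 1609 to 1901). It lay between 111 and 397 CPM in the others that were not marked by melanoma genes, except for the perivascular subcluster led by *Rgs5*, which had 0 UMIs of *Cxcl12* (interval up to 20.7 CPM). In the 7 tumours that held cells of the *Pi16*-led subcluster, its *Cxcl12* level ran from 695 to 2549 CPM. *Cxcl13* had 324 of its 369 CAF-like UMIs there, at 1007 CPM. *Ccl2* and *Cxcl5* were highest in the subcluster of 95 cells led by *Sema3c*, *Htra3* and *Ereg* (2718 and 1156 CPM), and *Cxcl14* in the one led by *Cilp* and *Eln* (1066 CPM), which also held the KO3 peak (6132 CPM from 4 cells). *Ccl2* was the one member of these still at 465 CPM in perivascular cells.

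In TAM-like cells the 6 leading ligands were *Cxcl2*, *Ccl2*, *Ccl8*, *Ccl12*, *Ccl6* and *Ccl7*. *Cxcl2* stood at 2037, 4831, 1326 and 1257 CPM in WT1 to WT4 and at 1990, 1919, 1045 and 5725 CPM in KO1 to KO4. WT2 and KO4 were high, 1 in each genotype. C1q-led cells were 15 of 40, 3 of 12, 26 of 37 and 19 of 22 TAM-like cells in WT1 to WT4. In KO1 to KO4 they were 16 of 40, 97 of 120, 9 of 20 and 18 of 67. Subcluster share and level per cell cannot be told apart in TAM-like sums, here and in the genotype tests. *Ccl2* stood at 1465, 1693, 1413 and 2698 CPM in WT1 to WT4 and at 2104, 1820, 4649 and 3418 CPM in KO1 to KO4. Its genotypes overlapped through WT4, the highest *Atf4* WT/WT tumour.

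*Ccl8* stood at 982, 0, 690 and 2920 CPM in WT1 to WT4 and at 1438, 3346, 1097 and 537 CPM in KO1 to KO4. *Ccl12* stood at 484, 697, 745 and 2384 CPM in WT1 to WT4 and at 1177, 995, 2716 and 852 CPM in KO1 to KO4. For both genes WT4 was the highest *Atf4* WT/WT tumour, and the 0 for *Ccl8* in WT2 came from 20077 UMIs in 12 cells. *Ccl6* stood at 1070, 897, 559 and 1164 CPM in WT1 to WT4 and at 1396, 786, 627 and 2668 CPM in KO1 to KO4. *Ccl7* stood at 572, 598, 668 and 1515 CPM in WT1 to WT4 and at 1094, 832, 1985 and 1538 CPM in KO1 to KO4. Both overlapped between the genotypes.

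**Figure D4:**
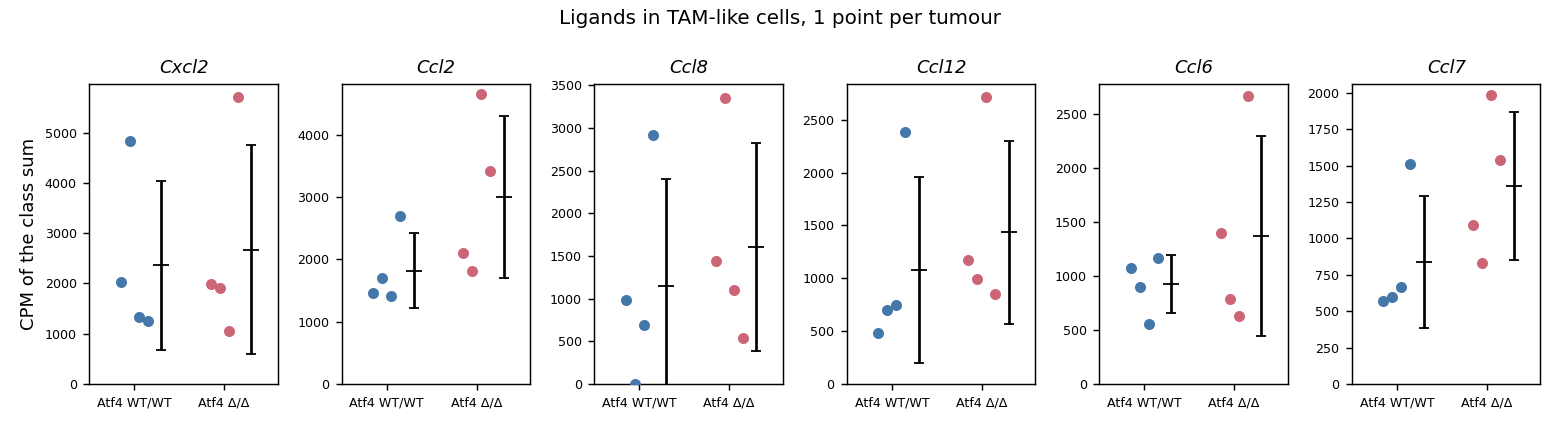
Level (CPM) of ligands in TAM-like cells of each tumour (points) by host genotype, with the mean ± SD in black (n = 4 tumours; the bar of *Ccl8* in *Atf4* WT/WT is cut at 0). The genotypes overlap for all 6 leading ligands, and WT4 lies apart from WT1 to WT3 for *Ccl12* and *Ccl7*.

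Between genotypes, 0 of 11 members passed in TAM-like cells by edgeR, as did 0 of 1210 genes (0%), and DESeq2 called 0 members as well. At an unadjusted p under 0.05 there was 1 member, *Ccl2* (0.74 ± 0.30, adjusted p = 0.69), against 6.86% of all genes in either direction and 3.88% in that direction. Without KO3 its log2 fold change was 0.47, and without the expression filter *Ccl2* (adjusted p = 0.028 by edgeR) and *Ccl4* (0.0080) passed. The median log2 fold change of the 11 was 0.40, against 0.03 over all genes, and 9 were positive. In 3.97% of all genes tested the genotypes did not overlap, and no member was among them. The genotype difference was then compared between CAF-like and TAM-like cells by an interaction term, with the tumour as a block. Of 20 members 0 passed, as did 0% of all genes. By edgeR 3 members were under an unadjusted p of 0.05 (1 positive and 2 negative), against 75 positive and 116 negative of all 4084 genes tested. The smallest adjusted p was that of *Ccl6* (-2.42 ± 0.81, adjusted p = 0.69 by edgeR), whose level in CAF-like cells was 5.74 CPM pooled.

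The TAM-like cells held 2 subclusters with different leading ligands, again as a description. The C1q-led one (203 cells) had *Ccl2* at 2620, *Ccl8* at 2552, *Ccl12* at 1429 and *Ccl7* at 1184 CPM pooled. In the Mmp12-led one (155 cells) *Ccl8* was at 587 and *Ccl12* at 531 CPM, while *Cxcl2* was at 4184, *Ccl4* at 1014 and *Cxcl10* at 647 CPM. Monocyte-like cells resembled the latter for *Cxcl2* (3796 CPM) and had *Ccl6* at 1513, *Ccl9* at 1229, *Cxcl10* at 404, *Cxcl9* at 173 and *Cxcl3* at 152 CPM, with *Ccl8* at 38.9 CPM.

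Summing all immune cells gives more cells per tumour (29 to 214), but the share of each immune type and its level per cell cannot be told apart in the sum. *Ccl7* stood at 389, 606, 443 and 591 CPM in WT1 to WT4 and at 800, 726, 1851 and 880 CPM in KO1 to KO4, without overlap, as for 6.12% of all genes tested. *Ccl2* stood at 1092, 1902, 959 and 1135 CPM in WT1 to WT4 and at 1585, 1695, 4194 and 2117 CPM in KO1 to KO4. Here WT2 overlapped the lower *Atf4* Δ/Δ values and KO3 was the highest. *Ccl6* stood at 803, 899, 574 and 661 CPM in WT1 to WT4 and at 1353, 773, 881 and 1876 CPM in KO1 to KO4, with overlap.

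The other leading ligands of immune cells overlapped between the genotypes. *Cxcl2* stood at 1465, 3825, 1009 and 1551 CPM in WT1 to WT4 and at 1803, 1923, 1358 and 4568 CPM in KO1 to KO4. *Ccl9* stood at 546, 1275, 668 and 714 CPM in WT1 to WT4 and at 807, 578, 672 and 1308 CPM in KO1 to KO4. As in TAM-like cells, WT2 and KO4 were highest for both. *Ccl8* stood at 554, 0, 457 and 874 CPM in WT1 to WT4 and at 1018, 2806, 955 and 207 CPM in KO1 to KO4. *Ccl12* stood at 406, 1003, 494 and 746 CPM in WT1 to WT4 and at 902, 844, 2343 and 415 CPM in KO1 to KO4. *Ccl8* was highest in KO2 and *Ccl12* in KO3.

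Of 13 members tested in all immune cells, 0 passed by edgeR, as did 0% of all 2142 genes, and DESeq2 called 0 as well. At an unadjusted p under 0.05 there were 4, all higher in *Atf4* Δ/Δ hosts, against 9.76% of all genes in either direction and 4.76% in that direction. They were *Ccl7* (1.05 ± 0.29, adjusted p = 0.38), *Ccl2* (0.92 ± 0.31, adjusted p = 0.44), *Ccl6* (0.77 ± 0.27, adjusted p = 0.45) and *Ccl4* (1.02 ± 0.39, adjusted p = 0.46). All 4 passed by edgeR without the expression filter (adjusted p = 0.0026 for *Ccl7* and *Ccl2*, 0.036 for *Ccl6* and 0.0091 for *Ccl4*), where 69 genes passed. Without KO3 the log2 fold change was 0.69 for *Ccl7* and 0.54 for *Ccl2*, and without KO4 it was 0.48 for *Ccl6*. The median of the 13 was 0.75, against 0.01 over all genes. All 5 macrophage genes of a fixed list (*C1qa*, *C1qb*, *C1qc*, *Csf1r* and *Adgre1*) had positive log2 fold changes in the same sums, with a median of 0.76, and their part in the ligand values was not tested.

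T/NK-like and dendritic-like cells had the highest levels of a few ligands, at low cell numbers. *Xcl1*, which draws XCR1-bearing dendritic cells, had 57 UMIs in T/NK-like cells (623 CPM, 95% exact Poisson interval 472 to 808) and 4 in all melanoma-like cells. By tumour, T/NK-like cells held 8, 0, 13 and 32 UMIs of *Xcl1* in WT1 to WT4 and 0, 2, 0 and 2 in KO1 to KO4, from 20, 0, 20 and 17 cells and from 9, 6, 2 and 11 cells. WT2 had no cell of this class, so its 0 says nothing of the level. *Ccl5*, a T cell attractant, was at 1892 CPM in T/NK-like cells, where it was found in 49.4% of cells (median 743 UMIs), against 2.62% of CAF-like cells (median 4332.5 UMIs) and 7.83% of melanoma-like cells (median 10302 UMIs). At the common depth of 1000 UMIs, which 23 T/NK-like cells reached, the shares were 25.1%, 0.93% and 2.41%.

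The *Fscn1*-led dendritic-like cells had the highest pooled level of any ligand in the classes named here, that of *Ccl5*, at 10422 CPM (529 UMIs, interval 9552 to 11349). It was found in 89.7% of these 39 cells, against 0 UMIs in the 47 *Flt3*-led cells. The same cells held *Ccl22* at 1556 CPM (interval 1232 to 1940) and *Ccl17* at 217 CPM (interval 108 to 388), both ligands of CCR4 on T cells, and *Cxcl16* at 768 CPM, the ligand of CXCR6. No tumour had 10 cells of this group, and no genotype test was made. *Flt3*-led cells were led by *Ccl4* (316 CPM), *Cxcl10* (250 CPM) and *Cxcl9* (158 CPM). Endothelial-like cells, 36 in all, had *Cxcl12* at 228 CPM (24 UMIs, interval 146 to 340) and *Cxcl10* at 105 CPM.

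Melanoma-like cells were low in nearly every ligand of the stroma. The 5 genes of a fixed list that mark fibroblasts were present in them at 0.0318% to 0.157% of their level in CAF-like cells, and 5 macrophage genes at 0.0217% to 0.0684% of their level in immune cells. The upper end of the fibroblast range was *Lum* alone, with *Dcn*, *Col1a2*, *Col1a1* and *Col3a1* at 0.0318% to 0.0440%. *Cxcl12* at 0.0374% of the CAF-like level lay among the latter. *Ccl2* at 0.0871% of the CAF-like level lay above them and below *Lum*. At 0.0809% of the immune level *Ccl2* lay above the macrophage range. *Cxcl10* at 70.6%, *Ccl27a* at 117%, *Ccl5* at 120% and *Ccl25* at 199% of the CAF-like level lay above both ranges, as did *Cxcl9* at 0.241% and *Cx3cl1* at 2.17%.

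*Cxcl10*, a ligand of CXCR3 on T and NK cells, stood at 49.3, 44.0, 83.1 and 161 CPM in WT1 to WT4 and at 45.1, 95.0, 49.0 and 34.5 CPM in KO1 to KO4. *Ccl5* stood at 20.5, 16.7, 88.6 and 115 CPM in WT1 to WT4 and at 17.2, 107, 35.2 and 13.7 CPM in KO1 to KO4. WT3, WT4 and KO2 were high for both genes, and the genotypes overlapped, as they did for every member tested in these cells, whereas 6.63% of all genes did not overlap. By contrast *Ccl25*, a ligand of CCR9 known from thymus and gut, lay between 16.9 and 21.1 CPM in all 8 tumours, and *Ccl27a*, a ligand of CCR10 known from skin, between 5.20 and 6.75 CPM. The annotation places *Elavl1* over 204 bases of *Ccl25* and *Il11ra1* over 8 bases of *Ccl27a* on the opposite strand, and *Art3* over the whole of *Cxcl10*.

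*Cxcl10* was unevenly spread over melanoma-like cells. A cluster of 842 cells, led by interferon-inducible genes, had *Cxcl10* at 736 and *Ccl5* at 426 CPM pooled, against 16.4 to 68.9 and 14.7 to 115 CPM in the other 9 melanoma-like clusters. It held 6495 of the 16808 *Cxcl10* UMIs and 3760 of the 11947 *Ccl5* UMIs of melanoma-like cells. In all it held 10629 of the 72849 ligand UMIs (14.6%) counted in all kept cells. By tumour its *Cxcl10* level was 489, 580, 836 and 1057 CPM in WT1 to WT4 and 507, 788, 645 and 172 CPM in KO1 to KO4. Its share of melanoma-like cells was 3.31%, 2.67%, 4.55% and 8.83% in WT1 to WT4 and 1.90%, 4.83%, 2.27% and 0.832% in KO1 to KO4. The tumours with the largest shares, WT4, KO2 and WT3, were also those with the highest *Cxcl10* and *Ccl5* of all melanoma-like cells. The interferon-inducible *Ifit1* moved with them, at 13.7, 11.03, 33.1 and 47.4 CPM in WT1 to WT4 and at 11.9, 38.2, 14.0 and 3.12 CPM in KO1 to KO4.

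**Figure D5:**
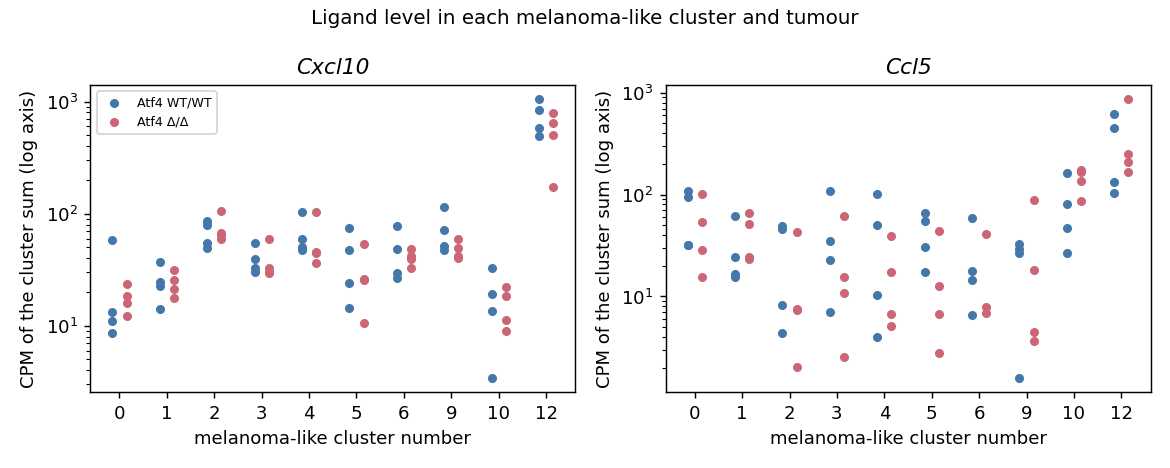
Level (CPM, log axis) of *Cxcl10* and *Ccl5* in each melanoma-like cluster (numbered on the x axis), with 1 point per tumour, coloured by host genotype. Cluster 12, the interferon-led one, lies between 172 and 1057 CPM for *Cxcl10*, above the other clusters, and between 104 and 871 CPM for *Ccl5*, where values of cluster 10 overlap with it.

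The genotypes were compared over 12555 genes in melanoma-like cells, 9 of them members. By edgeR 0 members passed, while 0.0319% of all genes did, and DESeq2 called 0 as well. *Cxcl10* had a log2 fold change of -0.63 ± 0.40 (adjusted p = 0.58), *Ccl5* of -0.51 ± 0.70 (adjusted p = 0.82), *Ccl25* of 0.01 ± 0.07 and *Ccl27a* of 0.09 ± 0.11. Without WT4, the log2 fold change of *Cxcl10* was -0.12 and that of *Ccl5* 0.0064. Without KO2 they were -1.004 and -1.47, and without the interferon-led cluster *Cxcl10* was at -0.21. Of the fixed list of interferon-response genes, 13 of 14 tested had negative log2 fold changes, 4 of them at an unadjusted p under 0.05, and 0 passed by edgeR. Among all 12555 genes, 6451 had negative log2 fold changes, 687 of them at an unadjusted p under 0.05. The 1 member with an unadjusted p under 0.05, against 11.4% of all genes in either direction and 5.89% in that direction, was *Ccl2* (1.79 ± 0.67, adjusted p = 0.38), at 0.673, 0.0976, 0.621 and 1.15 CPM in WT1 to WT4 and 1.75, 2.12, 0.351 and 4.68 CPM in KO1 to KO4. *Col1a1*, a fibroblast gene, ran alongside in these cells, at 1.80, 1.37, 2.23 and 3.49 CPM in WT1 to WT4 and 6.97, 5.06, 0.803 and 12.6 CPM in KO1 to KO4, and its part in the *Ccl2* value was not tested. Without KO4 the log2 fold change of *Ccl2* was 1.11. *Cxcl2* stood at 0.571, 0.456, 0.414 and 2.10 CPM in WT1 to WT4 and at 1.09, 1.85, 0.251 and 4.99 CPM in KO1 to KO4, lowest in KO3 and highest in KO4.

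Over all kept cells together, 0 of 21 members passed by edgeR, as did 0% of 13117 genes, and DESeq2 called 0 members as well. At an unadjusted p under 0.05 there were 5 (*Cxcl14*, *Ccl4*, *Ccl3*, *Ccl11* and *Ccl2*), all higher in *Atf4* Δ/Δ hosts, against 10.4% of all genes in either direction and 5.45% in that direction. *Cxcl14* (2.54 ± 0.56, adjusted p = 0.31) was the one member whose genotypes did not overlap, against 6.30% of all genes, at 0.992, 1.24, 0.158 and 1.29 CPM in WT1 to WT4 and 3.55, 4.38, 3.01 and 11.4 CPM in KO1 to KO4. In such sums a larger share of fibroblasts and a higher level per fibroblast cannot be told apart, and *Col1a1* went from 51.9 to 121 CPM in *Atf4* WT/WT and from 8.58 to 429 CPM in *Atf4* Δ/Δ tumours.

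The receptors were read from lists fixed with the design, and 0 passed between genotypes by edgeR in any class tested, with 0 at an unadjusted p under 0.05. Of the 7 chemokine receptors tested between TAM-like and melanoma-like cells, 6 passed as higher in TAM-like cells, against 16.9% of all genes tested. This count depends on the expression filter as those of the ligands do. Among the 6 were *Ccr1* (183 ± 69.5 CPM) and *Ccrl2* (150 ± 112 CPM, SD, n = 8). The product of *Ccr1* binds those of *Ccl3*, *Ccl6* and *Ccl9*, which the same cells held. CAF-like cells had *Ackr3*, the scavenging receptor of Cxcl12, at 148 ± 80.7 CPM, and TAM-like cells had 0 UMIs of it. Melanoma-like cells held *Cxcr3*, the receptor of Cxcl9 and Cxcl10, at 6.18 ± 0.71 CPM, and CAF-like cells were lower by a log2 difference of -3.15 ± 0.72 (adjusted p = 2.7e-04 by edgeR). Between TAM-like and melanoma-like cells *Cxcr3* did not pass (-1.29 ± 0.87, adjusted p = 0.23 by edgeR). *Pf4*, a platelet-type chemokine whose symbol lies outside the rule, was at 2417 CPM pooled in TAM-like cells.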

How the data were processed

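Dissociated cells of each tumour were captured with a 10x Genomics droplet kit that reads the 3′ ends of transcripts (the V3 kit per the labels, the V2 kit per the study's methods), and the labels and the methods also differ on the age of the mice. Per the labels and the methods, reads were mapped to GRCm38 with Cell Ranger (3.1.0 in the submitters' processing notes, which also name Seurat 3.2.1). The deposited values of each tumour are whole UMI counts for every gene and called barcode, not normalized.

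Filters followed the study: 200 to 5000 genes per cell, no more than 7.5% mitochondrial counts, and detection of a gene in 3 cells or more. Seurat 5.3.0 (R 4.3.3) scaled each cell to 10000 counts and integrated both genotypes (2000 variable genes, 20 components), and resolution 0.7 gave 16 clusters. The 51 chemokine ligand and receptor genes (with *Pf4* and *Ppbp*) did not enter the clustering. A cluster of 242 cells of high mitochondrial share, 231 of them from WT4, was removed. Clusters were named from fixed marker lists, doublets were not called, and cells of the CAF and immune clusters that carried melanoma markers were set aside. Subclusters came from repeat clustering at resolution 0.3 (immune) and 0.4 (CAF, used for the cells set aside and for leaving out perivascular cells). The CAF subclusters described with their ligand levels came from a finer split at resolution 1, added after the data had been seen.

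Counts were summed per tumour and class with at least 10 cells and tested with edgeR 4.0.16 (TMM, filterByExpr, quasi-likelihood test, Benjamini-Hochberg over all genes tested, threshold 0.05, limma 3.58.1), with the tumour as a block between classes. The genotype test was also run on simulated counts with known fold changes for CAF-like, TAM-like and melanoma-like sums, with the outcome not given here. The tests between classes and the interaction were not run on simulated counts. Each SE of a log2 fold change or difference was derived as its absolute value divided by the square root of the edgeR F statistic. It is therefore not a measured spread between tumours. CPM were taken from the class sums, and UMI counts need no length scaling. No library was a copy of another: within a genotype, the chi-square per gene between libraries was 10.9 to 42.6 (12 pairs). Nothing in the labels pairs tumours across genotypes. Alternatives were DESeq2 1.42.0, no expression filter, a marker gate per cell, a mitochondrial limit of 5%, host cells with at least 5 melanoma-marker UMIs left out, sex as a covariate, the replicate number as a block and leaving out 1 tumour at a time. Alternatives on subclusters and on cells set aside were added after the data had been seen. The members and lists were chosen with earlier results of these data known. Named with values in every tumour were the 6 ligands of highest CPM in each of 4 classes, any ligand past the threshold between genotypes, and *Cxcl12*. Other ligands are named with class levels, and those named for their differences are said to be so. Promoter windows came from a RefSeq table (GRCm38.p6).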

Additional observations from a re-analysis of the deposited data

Results flagged for a closer look

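In groups of 4 tumours, a value was marked when its gap to the nearest of the others exceeded the 95% critical value of Dixon's test, which chance alone gives in about 1 in 20 groups. Of 48 groups checked, 3 were marked, and all 3 were WT4 among the *Atf4* WT/WT tumours. *Ccl12* in TAM-like cells stood at 2384 CPM in WT4, against at most 745 CPM in WT1 to WT3. *Ccl7* in TAM-like cells stood at 1515 CPM in WT4, against at most 668 CPM. *Cxcl2* in melanoma-like cells stood at 2.10 CPM in WT4, against at most 0.571 CPM. In WT4, 19 of the 22 TAM-like cells belonged to the C1q-led subcluster, against 15 of 40, 3 of 12 and 26 of 37 in WT1 to WT3. WT4 also held 231 of the 242 cells removed for their mitochondrial share. The part of either in these values was not tested.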

How the results depend on the processing

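Class comparisons and genotype comparisons behaved differently under the alternatives. Leaving out 1 tumour at a time kept the number of members called at 17 to 18 between CAF-like and melanoma-like cells, 14 to 17 between TAM-like and melanoma-like cells and 18 to 20 between CAF-like and TAM-like cells, and at 0 in each genotype comparison and in the interaction. Without the expression filter, 9 members were called between genotypes in CAF-like cells (8 higher in *Atf4* Δ/Δ), 2 in TAM-like cells and 7 in all immune cells (5 higher), among 114, 23 and 69 genes, and the cause was not tested. The numbers of members and genes tested in these fits are not given here. The counts therefore have no background share beside them and are not read as a result about the ligands as a group. Without the perivascular subcluster 1 member (*Ccl11*) was called in CAF-like cells, among 22 genes, and with the C1q-led TAM-like subcluster alone 1 member was called in the interaction. DESeq2 called 3, 1, 3, 120 and 114 genes in CAF-like, TAM-like, all immune, melanoma-like and all kept cells, and 0 members. Without the filter, 46 genes passed in melanoma-like and 0 in all kept cells.

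Of the named values, 633 kept their direction and side of the threshold, 15 newly passed, 8 no longer passed and 13 changed sign. Sign changes between genotypes were of *Cxcl12* in CAF-like cells (-0.045 to 0.44 leaving out tumours, lowest without WT2), *Ccl5* in melanoma-like cells (-1.47 to 0.0064) and *Ccl25* there (-0.034 to 0.038, and -0.042 at the 5% mitochondrial limit, -0.0018 without the interferon-led cluster). *Ccl5* ran from -2.96 to 0.085 between CAF-like and melanoma-like cells (0.12 without the interferon-led cluster), and from -0.12 to 0.68 between TAM-like and melanoma-like cells (-0.094 with the marker gate, -0.74 in the C1q-led subcluster). *Cxcl10* was at -0.89 in that subcluster and passed otherwise between TAM-like and melanoma-like cells except under DESeq2 (adjusted p = 0.16).

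The replicate numbers did not pair the tumours: deviations of same-numbered tumours correlated at 0.18, -0.16, -0.07 and 0.14 in CAF-like cells. With a replicate block, 0 members were called in each of the 5 genotype comparisons, and *Ccl11* in CAF-like cells was higher by 0.94 on the log2 scale (edgeR adjusted p = 0.13). The marker gate was not run for all kept cells, which it does not change. Classes of 10 to 12 cells in KO3 and WT2 limit CAF-like and TAM-like values.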

Other observations

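The cluster of 242 cells removed for its mitochondrial share, 231 of them from WT4, held 284 UMIs of *Ccl5* (248 CPM) and 184 UMIs of *Cxcl10* (161 CPM).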
